A study of Oryctolagus cuniculus with 134 samples.

Results

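Lymphocyte marker genes were followed through the aorta and the 4 heart valves of rabbits. They were chosen by gene name: 7 markers were sought, CD3E, CD4, CD8A, CD5 and CD28 for T cells and CD79A and MS4A1 for B cells. Of the 29587 genes counted, 14716 carried a gene symbol and could be matched by name, and 3 of the markers were found among them: CD28 (ENSOCUG00000016134), CD5 (ENSOCUG00000022346) and MS4A1 (ENSOCUG00000007941). CD3E, CD4, CD8A and CD79A were not analysed here.

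The data were 134 RNA libraries of 27 male New Zealand White rabbits, bulk tissue of the aorta and of the aortic, mitral, pulmonary and tricuspid valves, with 6 or 7 libraries for each tissue and treatment. All rabbits began at 12 weeks of age and were followed for 16 weeks. Control rabbits (Ctrl) received chow without vitamin D2. CHT rabbits received 0.3% cholesterol and Lard rabbits 5% lard, both with vitamin D2 at 25000 U per day for each 2.5 kg of weight for 15 days, so that diet and vitamin D2 cannot be told apart against Ctrl. IR/CHT rabbits received the CHT regimen and, after 8 weeks of diet, 24 Gy of cardiac radiation in 3 fractions of 8 Gy. For its irradiation-only group, the paper describes a beam aimed at the aortic valve and thoracic aorta. The dose to each tissue is not given, so that tissue and dose cannot be told apart in IR/CHT. IR/CHT rabbit numbers lie in a range of their own, L28223 to L28422, so that radiation and rabbit set cannot be told apart either. Ctrl numbers lie in another, L08256 to L08742, and the labels do not say what the numbers stand for. Within a group, each library came from another rabbit.

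T cells recognise antigen through a receptor that signals by the CD3 chains, and CD28 on their surface gives the second, co-stimulatory signal when it meets CD80 or CD86 on an antigen-presenting cell. CD5 is a surface receptor of T cells, and of a subset of B cells, that dampens signalling through the antigen receptor. MS4A1 encodes CD20, a membrane protein of B cells from the pre-B stage until they become plasma cells. T cells are known residents of atherosclerotic plaque and of calcified valves, where they are found with the more numerous macrophages.

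The libraries held 13564979 to 50577676 counts, with a median of 18235577. Levels are given as CPM, the counts scaled to a common library size after adjustment by the trimmed mean of M-values (TMM). No lengths were used, so levels are compared between groups and never between genes. Every aorta library was on plate 2. The CHT groups of the aortic valve and of the mitral valve were wholly on plate 1, and the other valve groups were on both plates. Library L150 (aortic valve, Ctrl) correlated with its group at a median of 0.856 and L168 (tricuspid valve, Ctrl) at 0.774, below the others. Smooth muscle genes summed to 79406 CPM or more in each Ctrl aorta and to at most 1329.7 CPM in each Ctrl aortic valve, and heart muscle genes reached 42672 CPM in a Ctrl tricuspid valve. In bulk tissue, fewer cells of a type and less RNA per cell cannot be told apart.

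CD28 was close to absent in Ctrl rabbits and present in every left-sided library of the cholesterol-fed rabbits. In the aorta, 6 of the 7 Ctrl libraries had no count, and the other had 1 count, or 0.0692 CPM. CHT libraries ran from 4.13 to 8.28 CPM with a median of 6.27, and IR/CHT libraries from 3.18 to 11.3 CPM with a median of 6.28. The groups did not overlap with Ctrl. Lard libraries ran from 0 to 1.66 CPM, with 3 of 7 at 0 and a median of 0.0659 CPM.

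Of the Ctrl libraries of the aortic valve, 5 of 7 had no CD28 count and the highest reached 0.298 CPM. CHT libraries ran from 4.75 to 11.9 CPM (median 6.28) and IR/CHT libraries from 11.5 to 29.0 CPM (median 19.7). The lowest IR/CHT library lay just under the highest CHT library, so these groups met at their edges. Lard libraries reached 0.559 CPM, with a median of 0.0464.

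In the mitral valve, CD28 ran from 0 to 0.235 CPM in Ctrl, from 1.99 to 6.71 in CHT (median 4.22) and from 2.68 to 13.6 in IR/CHT (median 9.66). The cholesterol-fed groups again lay wholly above Ctrl, and overlapped each other. Lard libraries ran from 0 to 0.31 CPM, within reach of Ctrl.

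**Figure D1:**
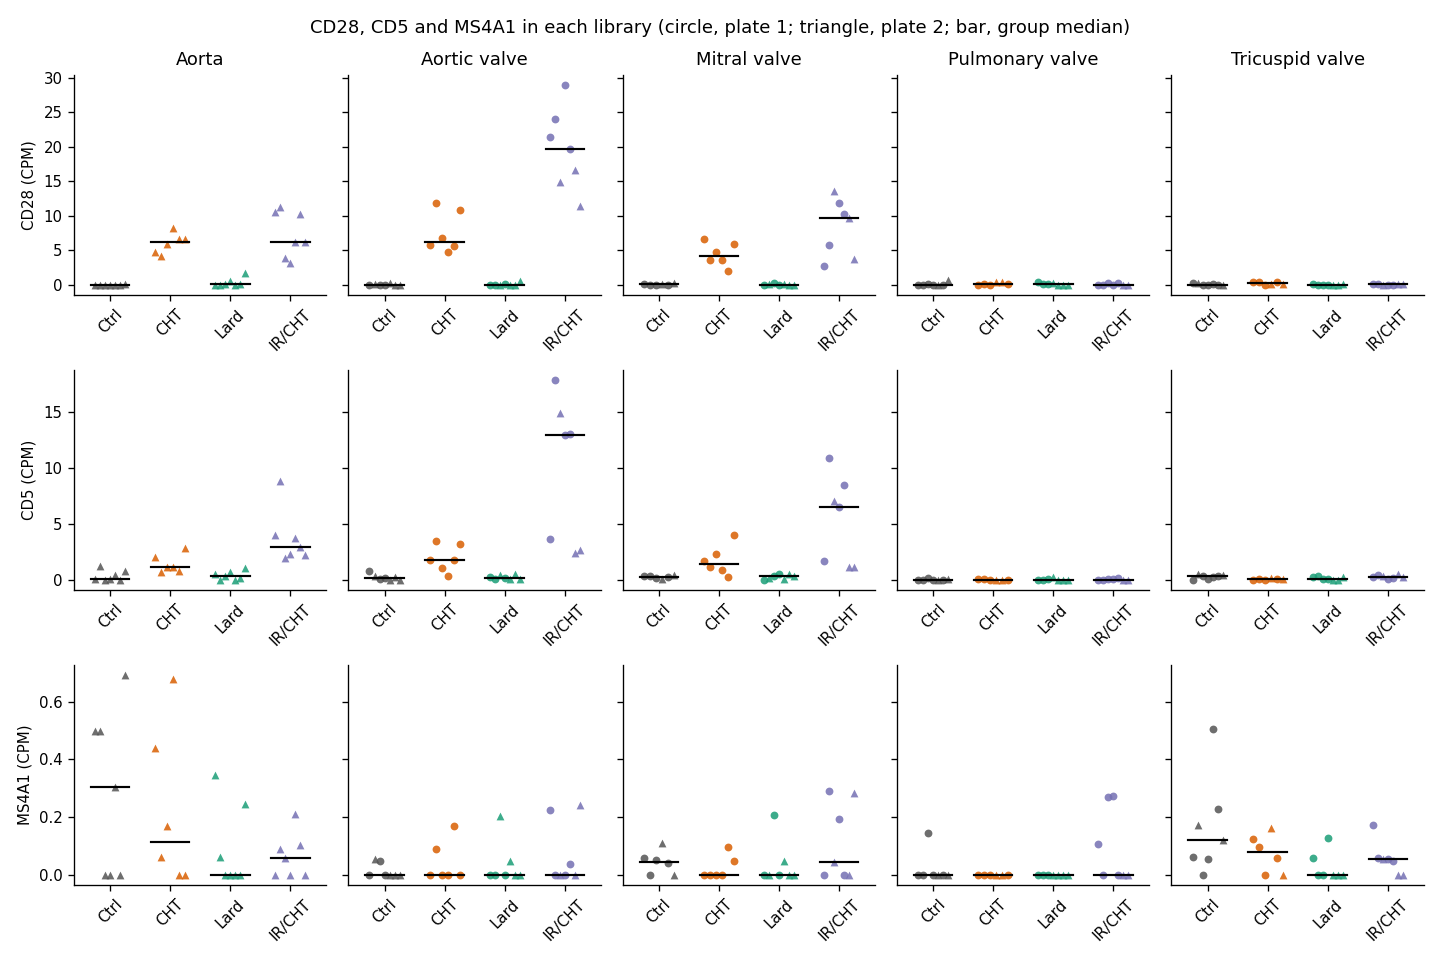
CD28, CD5 and MS4A1 in every library, in CPM, by tissue and treatment, with circles for plate 1, triangles for plate 2 and a bar at each group median. CD28 is raised in CHT and IR/CHT rabbits in the 3 left-sided tissues, up to 29.0 CPM in the IR/CHT aortic valve, and stays at or under 0.669 CPM in the pulmonary and tricuspid valves.

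Each difference was tested with edgeR's quasi-likelihood test on the counts of all genes that passed a filter on low counts, and a gene counted as differentially expressed (DEG) when it changed more than 1.5-fold with a p-value below 0.05 after Benjamini-Hochberg adjustment. CD28 and CD5 passed the filter in the 3 left-sided tissues, and did so through the groups in which they were high. MS4A1 passed it in no tissue, and no marker passed it in the pulmonary or tricuspid valve.

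CD28 rose in CHT against Ctrl in all 3 left-sided tissues. The log2 fold change was 8.55 ± 0.98 (SE) in the aorta (adjusted p = 2.12e-07, 19.4% of all genes tested called), 7.09 ± 0.72 in the aortic valve (adjusted p = 7.39e-08, 11.9% called) and 5.41 ± 0.66 in the mitral valve (adjusted p = 4.62e-06, 5.62% called). A log2 fold change against so few counts depends on the prior count of the fit. On plate 1 alone, where the 3 Ctrl aortic valves had no CD28 count, CHT was at least 142.0-fold higher in this valve, with a group at 0 read as 3 counts. As a ratio of pooled CPM, CHT exceeded Ctrl 678-fold in the aorta, with a 95% counting interval of 121 to 26810, since the Ctrl libraries held 1 count against 654. The ratio was 166.6 (76.3 to 455) in the aortic valve, from 1140 counts against 6, and 47.0 (26.1 to 94.6) in the mitral valve, from 617 against 11. These intervals cover counting error only.

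CD28 also rose in IR/CHT against Ctrl. The log2 fold change was 8.89 ± 0.97 in the aorta (adjusted p = 4.44e-08, 34.3% of genes called), 8.50 ± 0.73 in the aortic valve (adjusted p = 4.48e-10, 42.8% called) and 6.30 ± 0.66 in the mitral valve (adjusted p = 1.36e-07, 17.7% called). On plate 1 alone, IR/CHT was at least 406.2-fold higher in the aortic valve, and on plate 2 alone the log2 fold change was 7.30 (adjusted p = 0.00106). Without Ctrl library L571, which held the 1 Ctrl count of the aorta, CHT was at least 196.4-fold higher there, from 654 counts against 0, and IR/CHT held 1006 counts against 0. Without Ctrl library L240 the log2 fold changes in the aortic valve were 8.30 and 9.72, and all these calls were kept. The pooled ratios were 845 (151.4 to 33420) in the aorta, 399 (182.9 to 1087) in the aortic valve and 86.4 (48.1 to 173.6) in the mitral valve.

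CD5 was detected in most left-sided Ctrl libraries, and its fold changes were smaller. In the aorta it ran from 0 to 1.24 CPM in Ctrl (median 0.126), from 0.678 to 2.88 in CHT (median 1.14) and from 2.0 to 8.81 in IR/CHT (median 2.94). CHT overlapped with Ctrl, with 2 of 6 libraries above every Ctrl library, whereas all 7 IR/CHT libraries were above Ctrl. The IR/CHT difference was called, at a log2 fold change of 3.33 ± 0.75 (adjusted p = 0.000591), and the CHT difference was not, at 1.93 ± 0.75 (adjusted p = 0.053). That p-value lies next to the threshold, and without Ctrl library L552 or L571 or CHT library L560 or L573, 2 markers were called in place of 1. The IR/CHT difference was 4.01 without L552, and the call was kept.

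CD5 in the aortic valve ran from 0 to 0.825 CPM in Ctrl (median 0.166), from 0.362 to 3.49 in CHT (median 1.79) and from 2.41 to 17.9 in IR/CHT (median 13.0). It rose in both, by 3.06 ± 0.71 on the log2 scale in CHT (adjusted p = 0.00363) and by 5.41 ± 0.74 in IR/CHT (adjusted p = 1.03e-06). Of the CHT libraries, 5 of 6 lay above every Ctrl library. The highest Ctrl value was that of L150, the library that stood apart. All CHT libraries here were on plate 1, and on plate 1 alone the CHT call was lost (2.48, adjusted p = 0.0917). Without L150 the values were 3.72 in CHT and 6.07 in IR/CHT, and both calls were kept.

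CD5 in the mitral valve ran from 0.0557 to 0.47 CPM in Ctrl (median 0.308), from 0.291 to 4.06 in CHT (median 1.44) and from 1.13 to 10.9 in IR/CHT (median 6.53). The log2 fold change was 2.61 ± 0.71 in CHT (adjusted p = 0.0234) and 4.20 ± 0.73 in IR/CHT (adjusted p = 0.000113). The CHT call was lost without Ctrl library L199 or L241 or CHT library L266, with adjusted p up to 0.0961. With plate as a covariate it was 2.41 (adjusted p = 0.0522), and on plate 1 alone 2.56 (adjusted p = 0.0816). The IR/CHT call was lost on plate 2 alone (3.58, adjusted p = 0.105).

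**Figure D2:**
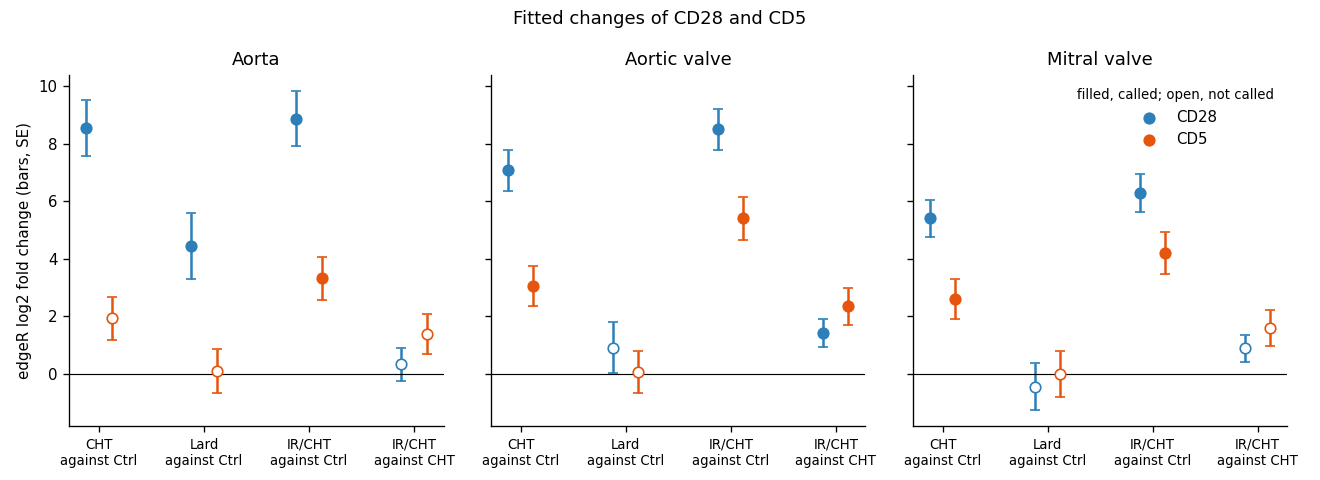
Log2 fold changes of CD28 and CD5 by tissue and comparison, with error bars of 1 SE, filled points for calls and open points for no call. The changes against Ctrl are above 5 for CD28 in CHT and IR/CHT in all 3 left-sided tissues, and those of CD5 in the same comparisons lie between 1.93 and 5.41.

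The addition of radiation was followed by comparing IR/CHT with CHT directly, though radiation and rabbit set cannot be told apart in this comparison. In the aortic valve, where 19.7% of all genes were called, both markers were higher: CD28 by 1.42 ± 0.50 on the log2 scale (adjusted p = 0.0391), from 7.63 ± 3.02 (SD, n = 6) to 19.6 ± 5.91 CPM (n = 7), and CD5 by 2.35 ± 0.65 (adjusted p = 0.0092), from 1.96 ± 1.21 to 9.66 ± 6.52 CPM. The CD28 call was lost without any 1 of CHT libraries L151, L186, L228 and L244 and IR/CHT libraries L174, L178, L236 and L257, with adjusted p between 0.035 and 0.0904 over the libraries left out. It was also lost with plate as a covariate, at 1.40 (adjusted p = 0.0588). On plate 1 alone, the differences were 1.67 for CD28 (adjusted p = 0.00356) and 2.64 for CD5 (adjusted p = 0.00661).

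In the aorta (0.596% of genes called) and the mitral valve (0.189% called), neither marker passed the test between IR/CHT and CHT. CD28 differed by 0.33 ± 0.56 in the aorta (adjusted p = 0.737) and by 0.89 ± 0.47 in the mitral valve (adjusted p = 0.42). CD5 differed by 1.40 ± 0.70 (adjusted p = 0.232) and 1.59 ± 0.62 (adjusted p = 0.273).

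On Lard, a single marker was called, in a single tissue. In the aorta (2.61% of genes called) CD28 was called higher than in Ctrl, at a log2 fold change of 4.44 ± 1.15 (adjusted p = 0.0325), or a pooled ratio of 38.1 (6.45 to 1540) from 40 counts against 1. Without the filter the adjusted p was 0.0508, and with only the 2 groups compared the gene did not pass the filter and was not tested. Of those 40 counts, 27 were in library L578 of rabbit L09695. The call was lost without L578, without Lard library L575, and without any 1 of the 7 Ctrl libraries (L551, L552, L553, L568, L569, L570 and L571). Over all 14 libraries left out, the log2 fold change ran from 3.07 to 5.61 and the adjusted p from 0.0125 to 0.155. CD5 did not differ in the aorta by this test (0.11 ± 0.77, adjusted p = 0.964). In the aortic valve (0.234% called) CD28 was at 0.91 ± 0.89 (adjusted p = 0.564) and CD5 at 0.07 ± 0.73 (adjusted p = 0.964). In the mitral valve, where 0.0% of genes were called by edgeR and 253 had an unadjusted p under 0.05, CD28 was at -0.44 ± 0.82 and CD5 at 0.00 ± 0.81. DESeq2 called neither marker in these 2 valves.

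The right-sided valves of the same rabbits showed little of either T cell marker. In the pulmonary valve, CD28 did not exceed 0.669 CPM in any library and CD5 did not exceed 0.278 CPM. One IR/CHT library of this valve, L275 of rabbit L28421, stood apart with 7.58 CPM of PTPRC, a gene of all white blood cells, against 33.0 to 54.4 CPM in the other 6, and it held no count of any marker. It also had 118.1 CPM of endothelial genes and 303.9 CPM of macrophage genes, against 1088 to 1536 and 857.9 to 1066 CPM in the others. Another library of the group, L176, had 19900 CPM of smooth muscle genes, against 277.8 to 1938 CPM in the other 6. Their part in the marker values was not tested. In the CHT group CD28 had 21 counts against 15 in Ctrl, a ratio of 1.56 (0.764 to 3.24), and in IR/CHT the ratio was 0.848 (0.372 to 1.91). Of the 15 Ctrl counts, 10 were in library L279, and without it the ratios were 4.1 (1.51 to 13.9) and 2.24 (0.749 to 8.02), so that the IR/CHT ratio turned. Without IR/CHT library L259, the ratio of IR/CHT to Ctrl was 0.55 (0.19 to 1.43). CD5 had 4 counts in CHT, 6 in IR/CHT and 4 in Ctrl. Few genes changed in this valve at all, with 0.159% called in CHT and 0.706% in IR/CHT.

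In the tricuspid valve, CD28 ran from 0 to 0.305 CPM in Ctrl, to 0.444 in CHT and to 0.174 in IR/CHT. Its ratio of CHT to Ctrl was 2.31 (1.15 to 4.88), from 27 counts against 13, and that of CD5 was 0.243 (0.0906 to 0.561), from 7 against 32. The ratio of IR/CHT to Ctrl was 0.584 (0.21 to 1.52) for CD28 and 1.13 (0.686 to 1.86) for CD5, the latter 0.97 to 0.984 without any 1 of L276, L159 and L201. Against CHT, IR/CHT had a ratio of 0.253 (0.0993 to 0.572) for CD28 and of 4.63 (2.04 to 12.3) for CD5, each opposite in direction to the ratio of CHT to Ctrl. Fitted without the filter, neither CHT difference from Ctrl passed the test (adjusted p = 0.677 and 0.598). Here 0.163% of all genes were called in CHT and 0.231% in IR/CHT.

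Ordered by mean, CD28 was at 19.6 ± 5.91 CPM (SD, n = 7) in the IR/CHT aortic valve, 8.26 ± 4.2 in the IR/CHT mitral valve, 7.63 ± 3.02 in the CHT aortic valve, 7.39 ± 3.32 in the IR/CHT aorta, 6.07 ± 1.48 in the CHT aorta and 4.44 ± 1.71 in the CHT mitral valve. The first mean exceeded the second by more than either SD, and each of the others differed from the next by less than the larger of their SDs. The next group was the Lard aorta at 0.348 ± 0.617 CPM. In Ctrl, the means ran from 0.00988 CPM in the aorta to 0.131 CPM in the pulmonary valve, and the ranges of all 5 tissues overlapped. For CD5, the IR/CHT aortic valve was again highest at 9.66 ± 6.52 CPM, before the IR/CHT mitral valve at 5.29 ± 3.94 and the IR/CHT aorta at 3.73 ± 2.37 CPM, and these ranges overlapped. Ctrl means of CD5 ran from 0.0305 ± 0.057 CPM in the pulmonary valve to 0.383 ± 0.476 CPM in the aorta.

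Whether the response differed between tissues was tested as an interaction, called at an adjusted p-value under 0.05. In IR/CHT, tissue and radiation dose cannot be told apart by this test. CD28 responded more in the aortic valve than in the pulmonary valve of the same rabbits. Its log2 response was higher by 6.47 ± 1.25 in CHT (adjusted p = 0.000381, 4.39% of all genes called) and by 8.72 ± 1.28 in IR/CHT (adjusted p = 2.87e-07, 40.2% called). For CD5 the difference was 4.89 ± 1.68 in IR/CHT (adjusted p = 0.0173) and was not called in CHT, at 2.88 ± 1.65 (adjusted p = 0.354). Without L275, the IR/CHT differences were 8.54 for CD28 (adjusted p = 5.53e-07) and 4.72 for CD5 (adjusted p = 0.0253). The CD28 calls were kept without any 1 library, and the smallest differences, 5.14 in CHT (adjusted p = 0.0412) and 7.39 in IR/CHT (adjusted p = 0.000348), were found without the Ctrl pulmonary valve library L279. Without the Ctrl aortic valve library L240 they were larger, at 7.67 and 9.92. The CD5 call was lost without the Ctrl pulmonary valve library L184, at 3.64 (adjusted p = 0.358), which held 3 counts of CD5. Over all libraries left out, the CD5 difference in IR/CHT ran from 3.64 to 5.9. Between the aortic valve and the aorta, neither marker was called. CD28 differed by -1.60 ± 1.45 in CHT (adjusted p = 0.491, 5.3% of genes called) and -0.57 ± 1.01 in IR/CHT (adjusted p = 0.685, 32.8% called), and CD5 by 1.03 ± 1.05 (adjusted p = 0.547) and 1.93 ± 1.02 (adjusted p = 0.136).

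The IR/CHT rabbits differed among themselves in CD5. In the aortic valve, rabbits L28223, L28389, L28392 and L28395 had 13.1, 17.9, 14.9 and 13.0 CPM, and L28376, L28421 and L28422 had 3.67, 2.41 and 2.7 CPM. The mitral valves of the same 4 rabbits had 8.53, 10.9, 7.07 and 6.53 CPM, and the other 3 had 1.73, 1.16 and 1.13 CPM. The rabbits high in one valve were thus high in the other. Both sets had libraries on both plates, but unevenly: of the high set only L28392 was on plate 2, and of the low set only L28376 was on plate 1. Mean CD5 was 11.9 CPM on plate 1 and 6.65 CPM on plate 2 in the aortic valve, and 6.92 and 3.12 CPM in the mitral valve. Rabbit and plate are thus partly mixed here. In the aorta the order was another one, with L28389 highest at 8.81 CPM and L28392 lowest at 2.0 CPM.

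CD28 did not fall into the same order. In the aortic valve its IR/CHT values divided by plate, with 19.7 to 29.0 CPM in the 4 libraries of plate 1 and 11.5 to 16.6 CPM in the 3 of plate 2, so that rabbit and plate cannot be told apart there. L28376, low in CD5, had 21.5 CPM of CD28 in the aortic valve on plate 1, and L28392, high in CD5, had 14.9 CPM on plate 2. Mitral valve CD28 was lowest in L28376 at 2.68 CPM and highest in L28392 at 13.6 CPM. The aorta had its lowest CD28 in L28395, at 3.18 CPM, the rabbit with the highest aortic valve value, 29.0 CPM. These values are a description, and no split of the rabbits was tested.

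**Figure D3:**
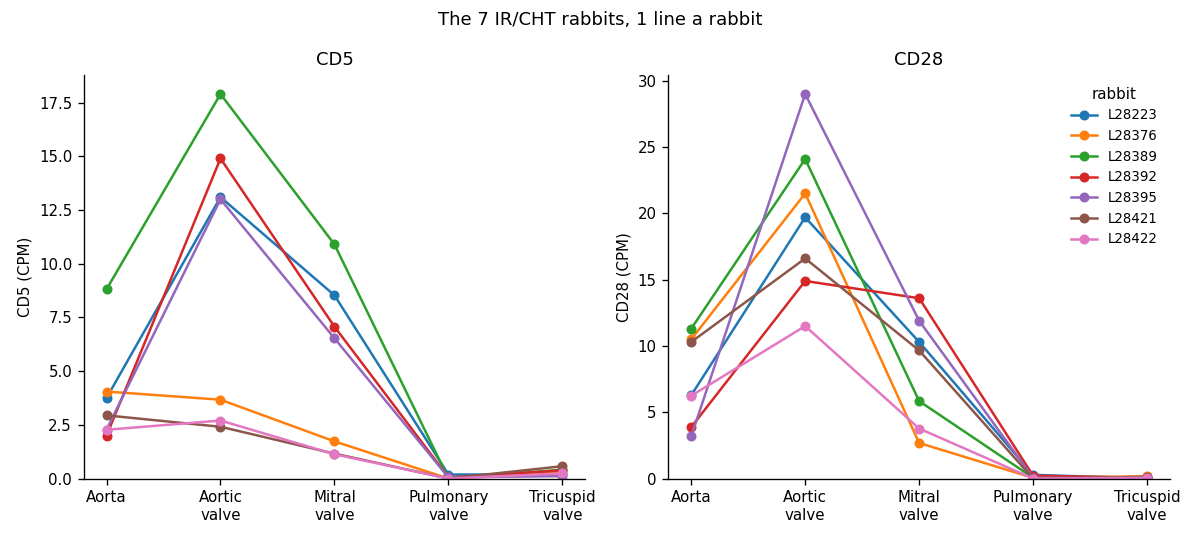
CD5 and CD28 in CPM in the 5 tissues of each of the 7 IR/CHT rabbits, with a line for each rabbit. For CD5, 4 rabbits lie between 13.0 and 17.9 CPM in the aortic valve and 3 between 2.41 and 3.67 CPM, and the same 4 are the higher ones in the mitral valve.

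Leukocyte genes rose in the same tissues. PTPRC, which encodes the CD45 phosphatase of all white blood cells, had a mean of 7.67 CPM in the Ctrl aorta and 116 CPM in CHT, and ran from 102 to 226 CPM in IR/CHT. Its means in the aortic valve were 17.2, 137 and 352 CPM, and those in the pulmonary valve 22.5, 31.2 and 36.9 CPM. The counts of each marker were therefore also set against those of PTPRC in the same library.

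CD28 was higher relative to PTPRC in the left-sided tissues of the cholesterol-fed rabbits than in Ctrl. For 100 PTPRC counts, the Ctrl aorta held a median of 0 CD28 counts (highest 0.662), CHT 5.23 (4.33 to 6.88) and IR/CHT 3.58 (3.12 to 6.98). The aortic valve medians were 0 in Ctrl (highest 1.09), 5.82 in CHT (3.95 to 6.68) and 6.03 in IR/CHT (3.8 to 6.71). Mitral valve medians were 0.318 in Ctrl (highest 1.0), 3.78 in CHT (2.7 to 5.09) and 4.78 in IR/CHT (2.77 to 8.03). CHT and IR/CHT did not overlap with Ctrl in any of the 3 tissues, and they overlapped with each other in each. The Lard medians were 0.476 in the aorta, 0.229 in the aortic valve and 0 in the mitral valve. Its highest aorta library reached 4.08 and its highest aortic valve library 6.34, and the first lay under the lowest CHT library but within the IR/CHT range, above its median, while the second lay within both ranges. In the pulmonary valve the medians were 0 in Ctrl (highest 3.5), 0.496 in CHT (highest 1.2) and 0.123 in IR/CHT (highest 0.666), and in the tricuspid valve 0 (highest 1.37), 0.864 (highest 1.87) and 0.217 (highest 1.21), and all these ranges overlapped.

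CD5 did not separate in this way. For 100 PTPRC counts, the Ctrl aorta held a median of 1.98 CD5 counts (0 to 14.8), CHT 1.11 (0.651 to 2.05) and IR/CHT 1.92 (1.3 to 3.89). The aortic valve held 1.64 (0 to 7.48), 1.82 (0.3 to 1.95) and 2.88 (0.778 to 6.03), and the mitral valve 1.21 (0.145 to 2.08), 1.29 (0.489 to 2.46) and 2.62 (0.756 to 8.42). The ranges overlapped in each tissue.

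**Figure D4:**
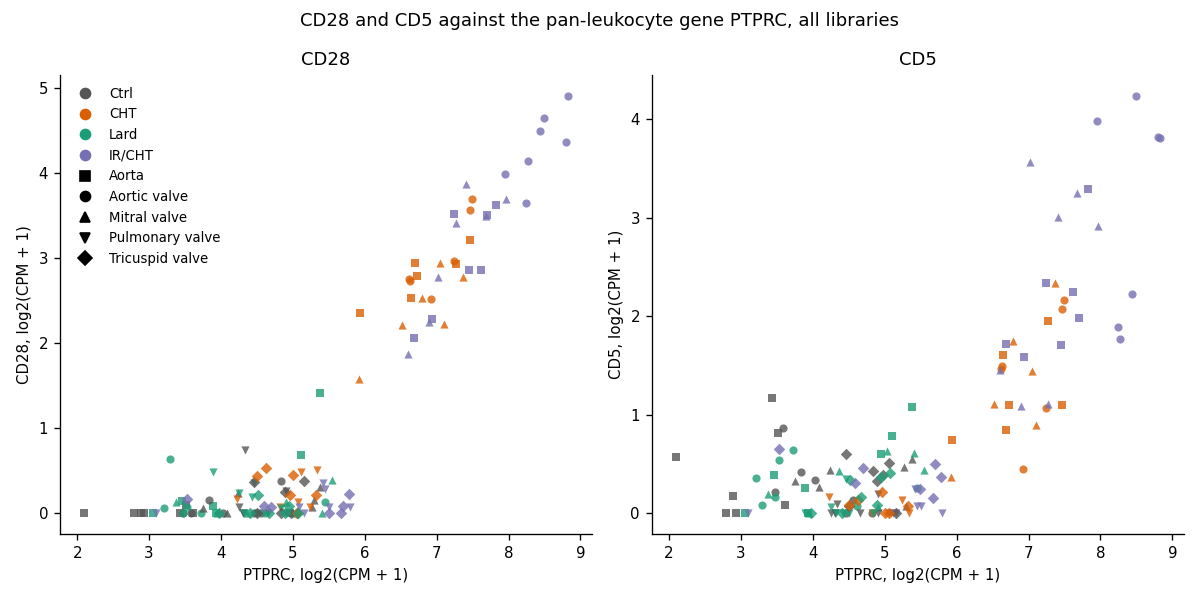
CD28 and CD5 against PTPRC in each library, both axes as log2 of CPM plus 1, with colours for treatments and symbols for tissues. CD28 exceeds 1.66 CPM in left-sided CHT and IR/CHT libraries alone, reaching 29.0 CPM, and Ctrl libraries with up to 40.6 CPM of PTPRC stay at or under 0.669 CPM of CD28.

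MS4A1 was near the limit of detection in all tissues, with no library over 13 counts. Its levels were highest in the Ctrl aorta, where 3 of 7 libraries had none and the highest had 0.692 CPM, with a mean of 0.284 ± 0.289 CPM (SD, n = 7). The aorta means were 0.225 in CHT, 0.0938 in Lard and 0.0664 CPM in IR/CHT, from 25, 11 and 9 counts. These ranges overlapped. In the aortic valve, Ctrl libraries held 2 counts in all, CHT 6, Lard 5 and IR/CHT 10. In the pulmonary valve, no count was found in the 6 CHT and the 7 Lard libraries, which allows up to 0.0269 and 0.0203 CPM at 3 counts. The pulmonary valve held 12 counts in IR/CHT against 3 in Ctrl, a ratio of 3.92 (1.06 to 21.6), and the mitral valve 16 counts in IR/CHT, 5 in Ctrl and 4 in CHT, a ratio of IR/CHT to CHT of 3.77 (1.22 to 15.5), or 6.38 without CHT library L245. All 3 Ctrl counts of the pulmonary valve were in L184. In the aorta, the ratio of CHT to Ctrl was 0.836 (0.473 to 1.46), from 25 counts against 31, and that of IR/CHT to Ctrl was 0.244 (0.102 to 0.525). Without CHT library L572 the first was 0.489, and without L574 or L571 it was 1.02 or 1.07. The second was 0.158 without IR/CHT library L580. In the tricuspid valve, with 19 counts in Ctrl, the ratio of IR/CHT to Ctrl was 0.35 (0.124 to 0.869), and 0.232 without L177. That of Lard to Ctrl was 0.161 (0.0305 to 0.547), and 0.062 without Lard library L251. These intervals cover counting error of the pooled libraries only, and the counts were spread unevenly over the rabbits.

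Values of CD79B, a signalling chain of the B cell receptor, were set beside those of MS4A1 after they had been seen. Of the Ctrl aortas, rabbit L08709 had 0.692 CPM of MS4A1 and 1.94 CPM of CD79B, L08256 had 0.498 and 0.747 CPM, and L08273 had 0.497 and 0.869 CPM. CD79B had a mean of 0.569 ± 0.694 CPM in the Ctrl aorta and 0.221, 0.162 and 0.0818 CPM in CHT, Lard and IR/CHT. The CHT aorta highest in CD79B, of rabbit L09355 at 0.802 CPM, held 0.0617 CPM of MS4A1. The genes parted in the aortic valve as well, where Ctrl rabbits L08719, L08286 and L08273 had 0.942, 0.619 and 0.375 CPM of CD79B and 0, 0.0476 and 0 CPM of MS4A1. CD79B was too low to pass the filter and was not tested.

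**Figure D5:**
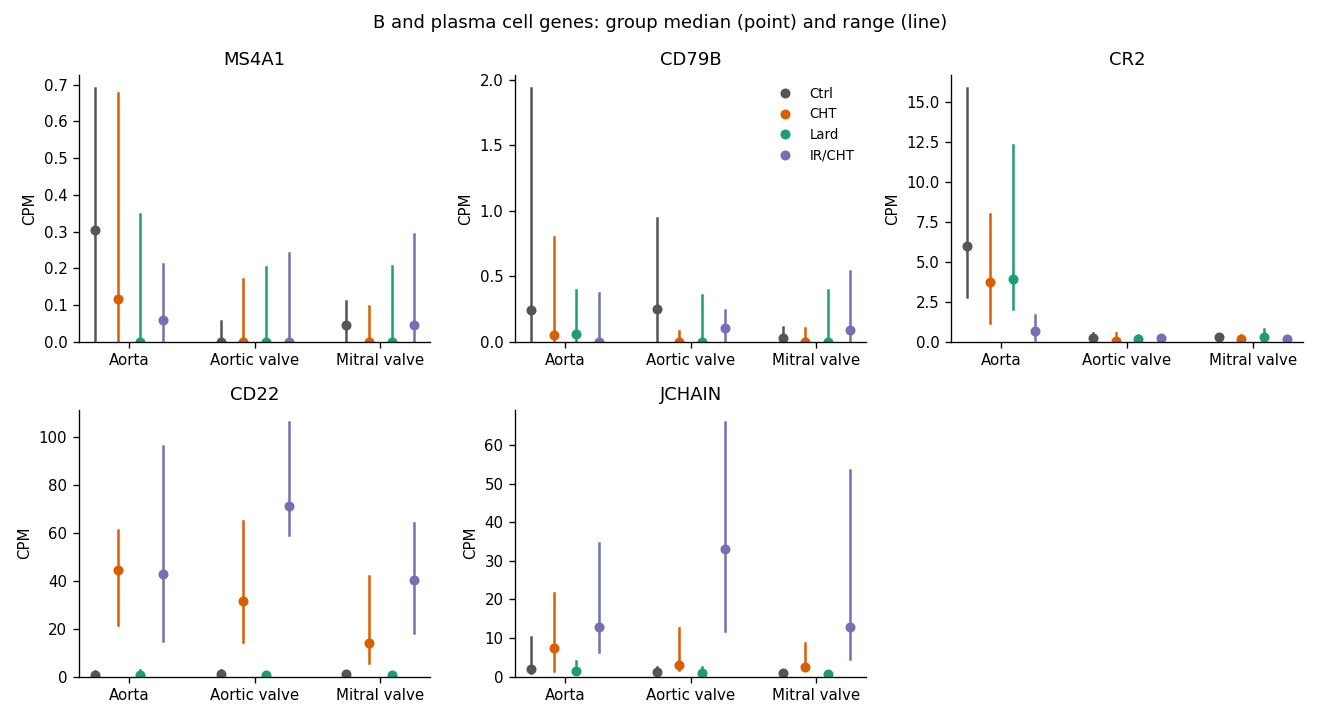
MS4A1, CD79B, CR2, CD22 and JCHAIN in CPM by left-sided tissue and treatment, with a point at each group median and a line from the lowest to the highest library. CD22 reaches 106 CPM in the IR/CHT aortic valve, far above its own Ctrl libraries, and CR2 is lower in the IR/CHT aorta than in Ctrl.

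Other lymphocyte genes were described from 4 lists of T cell genes, of which 45 of 63 were found, and 3 lists of B and plasma cell genes, of which 33 of 41 were found. The lists hold the 3 markers. Genes pass the filter through the groups where they are high, and myeloid cells also use many of them. Over all genes tested, the median log2 fold change lay between -0.0554 and 0.0405 in each comparison.

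Of the T cell genes tested in CHT against Ctrl, 16 of 34 rose in the aorta (median log2 fold change 1.46), 10 of 35 rose and 1 fell in the aortic valve (1.1), and 8 of 33 rose in the mitral valve (0.71). Over all genes tested, 19.4%, 11.9% and 5.62% were called in either direction in these comparisons. In IR/CHT, 26 of 34 rose and 1 fell in the aorta (2.17), 22 of 35 rose and 3 fell in the aortic valve (2.32), and 14 of 33 rose and 1 fell in the mitral valve (1.46), where 34.3%, 42.8% and 17.7% of all genes were called. Between IR/CHT and CHT, 13 of 35 were higher and 2 lower in the aortic valve (1.2, 19.7% of all genes called). The 13 were 7 without CHT library L186, 8 without L228 or L244, and 5 on plate 1 alone, which held all the CHT libraries. EdgeR called none in the aorta or the mitral valve, where 6 in each had an unadjusted p under 0.05 and DESeq2 called 2 and 0. With only the 2 groups compared, the aorta counts were 8 in CHT and 16 in IR/CHT, and on plate 1 alone the aortic valve counts were 6 and 13. On plate 2 alone, 5 rose in the IR/CHT mitral valve. On Lard, 8 of 34 rose in the aorta (0.664, 2.61% of all genes called). That count was 0 with only the 2 groups compared, where 15 were tested, 5 without the filter, 2 without Ctrl library L568 or Lard library L578, and 4 or 5 without any 1 of L553, L562, L569, L570 and L575. No T cell gene was called on Lard in the aortic or mitral valve by edgeR or DESeq2, where 5 and 1 had an unadjusted p under 0.05. In the pulmonary and tricuspid valves, 17 and 21 T cell genes were tested and edgeR and DESeq2 called none in CHT or IR/CHT, where edgeR called 0.159% and 0.706% of all genes in the pulmonary valve and 0.163% and 0.231% in the tricuspid valve. At shares this low, a count of 0 says nothing particular about these genes. At an unadjusted p under 0.05 these were 1 and 3 genes in the pulmonary valve and 3 and 1 in the tricuspid valve.

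Among the genes of the T cell surface, CD2, an adhesion receptor that binds CD58, rose from 0.0459 ± 0.0926 to 1.97 ± 1.44 CPM in the IR/CHT aortic valve (log2 fold change 5.26 ± 1.13, adjusted p = 0.000374) and from 0.207 ± 0.178 to 0.887 ± 0.466 CPM in the IR/CHT aorta (2.13 ± 0.67, adjusted p = 0.00972). CD6, a relative of CD5, rose from 0.0526 ± 0.0779 to 0.7 ± 0.338 CPM in the IR/CHT mitral valve (3.59 ± 0.93, adjusted p = 0.00513). Without Ctrl library L277 the CD2 difference in the aortic valve was 7.03, and without Ctrl library L199 that of CD6 was 4.70, and both calls were kept. CD27, a co-stimulatory receptor of the TNF receptor family, rose from 0.346 ± 0.254 to 1.28 ± 0.514 CPM in the CHT aortic valve (1.88 ± 0.59, adjusted p = 0.0328) and to 1.67 ± 0.998 CPM in IR/CHT (2.32 ± 0.58, adjusted p = 0.00168). Its CHT call was lost without any 1 of L150, L151, L182, L228, L265 and L277, with adjusted p up to 0.0606. LAG3, an inhibitory receptor of activated T cells, rose from 0.527 ± 0.276 to 3.31 ± 2.86 CPM in the CHT mitral valve (2.66 ± 0.52, adjusted p = 0.00135).

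Adaptors of receptor signalling, which myeloid cells also use, were among the genes that rose. FYB1 rose from 25.4 ± 3.92 to 260 ± 42.7 CPM in the IR/CHT aortic valve (adjusted p = 1.6e-13), and LCP2, the adaptor SLP-76, from 7.17 ± 2.66 to 104 ± 13.2 CPM (adjusted p = 1.7e-09). PTPN22, a phosphatase that restrains receptor signalling, rose from 0.321 ± 0.222 to 4.57 ± 2.47 CPM in the CHT aorta (adjusted p = 2.13e-05). RASGRP1, which activates Ras in T cells, rose by 1.39 ± 0.26 on the log2 scale in the CHT mitral valve (adjusted p = 0.000856).

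Of the differentiation genes, IL7R, the receptor for interleukin 7, rose in all 3 tissues, and in the aortic valve from 1.34 ± 0.823 in Ctrl to 12.6 ± 4.42 in CHT and 30.7 ± 7.88 CPM in IR/CHT (log2 fold changes 3.23 ± 0.43 and 4.57 ± 0.45). FOXP3, the transcription factor of regulatory T cells, rose in IR/CHT by 5.02 ± 0.82 in the aorta (adjusted p = 1.76e-05), by 3.78 ± 0.81 in the aortic valve (adjusted p = 0.000366) and by 3.04 ± 0.79 in the mitral valve (adjusted p = 0.0055). The aorta value was 6.13 without Ctrl library L552, and the call was kept. In the IR/CHT mitral valve, library L179 held 5.55 CPM and the other 6 held 1.71 or less, and without it the log2 fold change was 2.40 (adjusted p = 0.0204). LEF1, a transcription factor of naive T cells and of Wnt signalling in other cells, rose from 0.886 ± 0.474 to 17.9 ± 9.19 CPM in the IR/CHT aorta (4.40 ± 0.62, adjusted p = 2.72e-06) and fell from 63.8 ± 16.9 to 29.9 ± 9.87 CPM in the IR/CHT aortic valve (-1.04 ± 0.21, adjusted p = 0.000179).

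A separate list of 20 genes of cytotoxic and natural killer cells, of which 11 were found, had 4 genes that passed the filter in the aorta, 4 in the aortic valve and 1 in the mitral valve. Of these, 4, 2 and 1 rose in CHT (19.4%, 11.9% and 5.62% of all genes called) and 4, 4 and 1 in IR/CHT (34.3%, 42.8% and 17.7% called). Genes so low in Ctrl pass the filter through the groups where they are high, so these counts say little of the list. KLRG1, an inhibitory receptor of cytotoxic cells, rose in the IR/CHT aortic valve from 0.0494 ± 0.0898 to 0.755 ± 0.26 CPM (adjusted p = 9.69e-05). This difference was 3.72 on the log2 scale, and 5.02 without Ctrl library L277.

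Of the B and plasma cell genes tested in CHT, 10 of 20 rose in the aorta (median log2 fold change 1.21), 12 of 21 in the aortic valve (1.77) and 9 of 19 in the mitral valve (0.955), beside 19.4%, 11.9% and 5.62% of all genes called. In IR/CHT, 12 rose and 2 fell in the aorta (1.98), 15 rose and 4 fell in the aortic valve (2.78), and 12 rose in the mitral valve (1.7), beside 34.3%, 42.8% and 17.7% of all genes called. Against CHT, 10 were higher and 1 lower in the IR/CHT aortic valve (1.16, 19.7% called). In the aorta 1 was lower (CR2, -2.36, adjusted p = 0.0328, 0.596% called), and in the mitral valve 1 was higher (JCHAIN, 2.26, adjusted p = 0.0484, 0.189% called). The first call was lost without any 1 of L560, L561, L565, L566, L567, L572 and L582 and the second without any 1 of L170, L187, L195, L229, L237, L245, L258 and L548. On plate 1 alone, 7 rose in the CHT aortic valve, and on plate 2 alone 6 rose in the IR/CHT mitral valve. On Lard, 5 of 20 rose in the aorta (0.462, 2.61% called), and 0 of the 17 tested with only the 2 groups compared. Of the 11 B cell surface genes found, however, 3 at most were tested in a tissue, and MS4A1 and CD79B were not among them. LYN, SYK, BTK and BLNK, among those that rose, are also used by myeloid cells. LYN rose from 9.75 ± 2.94 to 78.4 ± 26.2 CPM in the CHT aorta, and SYK from 8.95 ± 2.75 to 145 ± 28.8 CPM in the IR/CHT aortic valve (adjusted p = 2.53e-09 and 2.67e-11).

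CD22, an inhibitory lectin of B cells, rose in all 3 left-sided tissues, as macrophage genes did. The mean of CD79B in the aorta was instead lower in CHT and IR/CHT than in Ctrl, with ranges that overlapped. Within the 39 left-sided CHT and IR/CHT libraries, CD22 correlated with CD28 at 0.788 and with CD5 at 0.674 (Spearman). Which cells held CD22 was not tested. CD22 rose from 0.978 ± 0.732 CPM in the Ctrl aorta to 42.8 ± 17.6 in CHT and 49.3 ± 25.3 in IR/CHT (log2 fold changes 5.49 ± 0.54 and 5.73 ± 0.54). Aortic valve levels of CD22 rose from 1.09 ± 0.833 to 33.4 ± 20.5 and 75.5 ± 16.6 CPM, and in the mitral valve from 1.03 ± 0.435 to 20.9 ± 15.3 and 40.5 ± 14.3 CPM. CR2, the complement receptor of mature B cells, fell from 7.19 ± 4.41 to 0.782 ± 0.53 CPM in the IR/CHT aorta (log2 fold change -3.13 ± 0.52, adjusted p = 2.41e-05). CR2 did not follow the other B cell genes among the Ctrl aortas: rabbit L08286, with the most CR2 at 15.9 CPM, had no count of MS4A1 or CD79B, and every Ctrl aorta had 2.82 CPM of CR2 or more.

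Of the plasma cell genes tested, 3 of 7 rose in the CHT aorta, 3 of 7 in the CHT aortic valve and 3 of 6 in the CHT mitral valve (19.4%, 11.9% and 5.62% of all genes called). The mitral valve count was 1 without CHT library L229, where JCHAIN and SLAMF7 lost their calls. In IR/CHT, 4 rose in the aorta, 5 rose and 1 fell in the aortic valve, and 4 rose in the mitral valve (34.3%, 42.8% and 17.7% called). Summed over the 9 genes found, the aortic valve medians were 203.0 CPM in Ctrl, 191.7 in CHT and 199.2 in IR/CHT. JCHAIN, which joins secreted IgA and IgM, rose from 1.3 ± 0.664 CPM in the Ctrl aortic valve to 4.25 ± 4.19 in CHT (adjusted p = 0.0144) and 36.8 ± 20.1 in IR/CHT (4.88 ± 0.51, adjusted p = 1.2e-08). In CHT, library L151 held 12.7 CPM and the other 5 held 1.58 to 3.1 CPM, and without it the mean was 2.56 CPM and the call was lost (adjusted p = 0.0836). Its mitral valve level rose from 1.09 ± 0.344 to 4.24 ± 3.13 and 20.3 ± 17.2 CPM (adjusted p = 0.0194 and 2.66e-06), and the CHT call was lost without L229 or L157 (adjusted p up to 0.0706). PRDM1, which drives plasma cell differentiation and acts in T cells and macrophages as well, rose from 3.92 ± 2.24 to 25.9 ± 3.77 CPM in the IR/CHT aortic valve (2.78 ± 0.35, adjusted p = 3.62e-07). In the pulmonary and tricuspid valves, edgeR called none of the 17 B and plasma cell genes tested in CHT or IR/CHT, at the same low shares of all genes, while DESeq2 called 2 in the pulmonary valve in IR/CHT. There, 4 genes had an unadjusted p under 0.05 in CHT and 7 in IR/CHT, and in the tricuspid valve 1 and 4.

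A list of lymphocyte chemokines and lymphoid organisation genes also holds cytokines and receptors such as IL7, IL15, LTB and LTBR. Of its genes tested, 5 of 9 rose in the CHT aorta, 2 of 8 in the aortic valve and 3 of 8 in the mitral valve (19.4%, 11.9% and 5.62% of all genes called). The aortic valve count was 1 without L150, L166, L228 or L261. The mitral valve calls, CCL19, LTB and CXCL10, were all lost without CHT library L229, and 1 was left without L156, L183 or L241. In IR/CHT, 8 rose and 1 fell in the aorta, 7 rose in the aortic valve and 6 in the mitral valve (34.3%, 42.8% and 17.7% called). The 8 were 5 without IR/CHT library L566. The summed level of the list in the aorta had a median of 236.4 CPM in Ctrl and 125.2 CPM in IR/CHT. CXCL10, a ligand of CXCR3 on activated T cells, rose from 0.31 ± 0.253 to 10.5 ± 6.93 CPM in the CHT aorta (5.09 ± 0.58, adjusted p = 2.1e-07) and from 0.462 ± 0.491 to 11.8 ± 5.24 CPM in the IR/CHT aortic valve (4.70 ± 0.64, adjusted p = 9.55e-07). CCL19, a ligand of CCR7, rose from 0.285 ± 0.251 to 1.68 ± 0.514 CPM in the CHT aorta (2.53 ± 0.62, adjusted p = 0.00312). CCL21, the other ligand of CCR7, fell from 210 ± 136 to 62.2 ± 30.6 CPM in the IR/CHT aorta (log2 fold change -1.70 ± 0.38, adjusted p = 0.000535).

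Markers of other cell types moved with these groups. Of the 15 macrophage genes tested, 13 rose in the CHT aorta and 15 in IR/CHT, 9 and 13 in the aortic valve, and 12 and 13 in the mitral valve. In the CHT mitral valve, MARCO, CSF1R, C1QC, C1QA and VSIG4 lost their calls without any 1 of L157, L199 and L266, which left 7. The shares of all genes called, in the same order, were 19.4% and 34.3%, 11.9% and 42.8%, and 5.62% and 17.7%, for these and for the muscle genes. Their summed level was 75.4 to 318 CPM in the Ctrl aorta, 577.5 to 1522 in CHT and 912 to 3028 in IR/CHT. The aortic valve values were 228.2 to 689, 1037 to 1477 and 2771 to 3513 CPM, and no macrophage gene was at 0 in any of these groups. On Lard, 8 of the 15 macrophage genes and 4 of 9 genes of all leukocytes rose in the aorta (2.61% of all genes called), with macrophage summed medians of 153.7 CPM in Ctrl and 420.8 CPM on Lard. Of the heart muscle genes of the aortic valve, 7 of 8 were lower in both CHT and IR/CHT, with a summed level of 165.98 to 12623 CPM in Ctrl, 9.51 to 350 in CHT and 19.5 to 237.8 in IR/CHT. For the aorta, 6 of 7 heart muscle genes were higher and 1 lower in IR/CHT (median log2 fold change 3.99), with a summed level of 154.1 to 2977 CPM and a median of 205.3, against 431.2 to 680.04 CPM in Ctrl with a median of 602. The 6 were 3 without IR/CHT library L566. Also there, 3 of 6 smooth muscle genes fell in CHT (5 without CHT library L560) and 5 in IR/CHT, with summed medians of 100090 CPM in Ctrl, 53449 in CHT and 30020 in IR/CHT. Of 6 valve interstitial and fibroblast genes, 3 rose in the CHT aorta (1 without Ctrl library L571), and 4 rose and 1 fell in IR/CHT, with summed medians of 12367, 14048 and 16433 CPM. In the mitral valve 2 of 6 smooth muscle genes rose in CHT and in IR/CHT, MYH11 (log2 fold changes 3.32 and 2.85) and ACTA2 (1.70 and 1.43), with a summed level of 161.1 to 435.3 CPM in Ctrl, 482.3 to 1338.5 CPM in CHT and 214.9 to 1388.3 CPM in IR/CHT, which overlapped with Ctrl. The fibroblast gene DCN (-1.32, adjusted p = 1.19e-05) and 3 of 6 adipocyte genes, LEP, CIDEA and CIDEC, fell in the IR/CHT mitral valve. Of 8 endothelial genes, 4 rose in the CHT aorta, and 4 rose and 1 fell in IR/CHT, with summed medians of 235.6, 591.6 and 747.8 CPM in Ctrl, CHT and IR/CHT. The 2 red blood cell genes tested both fell in the CHT aorta (median log2 fold change -3.43), with a summed level of 6.64 to 740.3 CPM in Ctrl and 6.88 to 47.3 in CHT, and both calls were lost without Ctrl library L569 or L571, among others. The summed level of the adipocyte genes in the aortic valve was 16.8 to 110.1 CPM in Ctrl and 118.3 to 1024 in IR/CHT, where 1 of the 4 tested was higher and 3 were lower, or 1 without L150. LPL, a lipase that macrophages also make, ran from 114 to 1010 CPM there, and the fat cell hormone gene ADIPOQ fell from a mean of 3.1 to 0.516 CPM (adjusted p = 0.0465, and 0.377 without L150). The part of these shifts in the marker results was not tested.

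Across all 134 libraries, the genes most like CD28 in pattern were GPR65, CLEC7A, LCP2, IGSF6 and AIF1, with Spearman correlations of 0.797, 0.792, 0.784, 0.784 and 0.783 among 14141 genes ranked. Those most like CD5 were CORO1A, IKZF1, PSAP, NADK and CIITA, at 0.837, 0.83, 0.829, 0.825 and 0.818. The libraries share rabbits and tissues, so the correlations include the differences between groups. The median correlation of CD28 over all libraries was 0.696 with the 15 macrophage genes, 0.416 with 17 genes of T cell receptor signalling and 0.588 with 3 of the T cell receptor complex and co-receptors. Within the 39 left-sided CHT and IR/CHT libraries, with group means again not removed, these medians were 0.699, 0.287 and 0.482. For CD5, with 2 genes in the last list, they were 0.53, 0.526 and 0.701 over all libraries, and 0.7, 0.405 and 0.561 within the 39. Within those 39 libraries, CD28 correlated with PTPRC at 0.887, with the macrophage gene CD68 at 0.85, with CD5 at 0.687, with CD2 at 0.482 and with the T cell kinase gene LCK at 0.363. CD5 correlated there with CD68 at 0.73, with PTPRC at 0.726, with CD2 at 0.606 and with LCK at 0.453. CD2 and LCK were low, at up to 4.9 and 5.87 CPM in any library and at 0 in some of the 39. Counting error weakens the correlations of genes so low, so the cell types cannot be ranked by these values. Over all libraries, CD28 and CD5 correlated at 0.661, and MS4A1 correlated with them at 0.135 and 0.235.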

How the data were processed

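The values are read counts per gene that the authors deposited for 134 libraries in 1 table for each of 2 plates, made with nf-core/rnaseq on OryCun2.0 with Ensembl genes, from stranded total RNA libraries (bcl2fastq 2.20 per the labels' processing notes). The counts are whole numbers without normalization. The RefSeq table at hand is of another assembly, so no coordinates were used. Libraries were grouped by their labels, and rabbits by the number in the library name. Markers and gene lists were chosen with earlier results of these data known. In R 4.3.3, edgeR 4.0.16 removed genes with low counts (filterByExpr), scaled by TMM (factors 0.729 to 1.222) and fitted 1 robust quasi-likelihood model of the 4 treatments for each tissue. Interactions were fitted over the libraries of both tissues. CPM used TMM over all libraries. Named genes are the markers in every comparison and, for each list and comparison with Ctrl, up to 3 called genes of smallest p, of which examples are given. The genes most like a marker were taken for CD28 and CD5, since CD3E and CD79A, for which this was planned, were not found, and correlations used log2 of CPM plus 1. CD6 and the B cell genes set beside MS4A1 were picked after their values were seen. A 95% counting interval is exact, conditional on the sum of both counts, and a group at 0 was read as up to 3 counts. Alternatives were no filter, only the 2 groups compared, DESeq2 1.42.0, plate as a covariate, each plate alone, a rabbit block and each library left out. The edgeR test of CHT against Ctrl in the aorta was tried on simulated counts with known changes, and the other steps were not. Tissues of 1 rabbit pair by animal: with group means removed, same-rabbit profiles of the aortic valve correlated at a median of 0.602 with the mitral valve, 0.245 with the aorta and 0.241 with the pulmonary valve.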

Additional observations from a re-analysis of the deposited data

Results flagged for a closer look

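A gap test for single libraries was applied to 45 groups of a marker, tissue and treatment, and 11 held a library that stood apart. Chance marks about 1 in 20 groups, and levels with many libraries at 0 are marked easily.

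For CD28, these were L578 (aorta, Lard) at 1.66 CPM, L240 (aortic valve, Ctrl) at 0.298 CPM, L543 (aortic valve, Lard) at 0.559 CPM, L233 (mitral valve, Lard) at 0.31 CPM and L279 (pulmonary valve, Ctrl) at 0.669 CPM. They held 27, 4, 9, 6 and 10 counts. L578 and L543 are the aorta and the aortic valve of the same rabbit, L09695, which was the highest of the 7 Lard rabbits for CD28 in both tissues.

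For CD5, the library L566 (aorta, IR/CHT, rabbit L28389) stood apart at 8.81 CPM, and the same rabbit had the highest CD5 of its group in the aortic and mitral valve. The others were L150 (aortic valve, Ctrl) at 0.825 CPM, L250 (pulmonary valve, Lard) at 0.278 CPM and L259 (pulmonary valve, IR/CHT) at 0.186 CPM, with 11, 5 and 4 counts.

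For MS4A1, L190 (aortic valve, Lard) had 0.203 CPM and L233 (mitral valve, Lard) 0.206 CPM, each from 4 counts. L233 was thus apart for both CD28 and MS4A1.

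The response also differed between the aortic and the pulmonary valve, by the interaction test of edgeR. On the log2 scale, the response of CD28 was larger in the aortic valve by 6.47 in CHT and by 8.72 in IR/CHT, and that of CD5 by 4.89 in IR/CHT. The pulmonary valve held few counts of either gene.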

How the results depend on the processing

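No called value changed direction under the alternatives run. Of differences that were not called, on Lard against Ctrl, CD28 in the mitral valve was at -0.44 and at 0.55 on plate 1 alone, and CD5 in the aortic valve at 0.07 and at -0.74 on plate 1 alone. Of the 477 counts of called markers recomputed, 438 stayed the same and 39 moved, and 28 log2 fold changes of called markers lost their call. The rabbit block changed no call of the interactions with the pulmonary valve: CD28 had adjusted p = 0.015 in CHT and 0.000192 in IR/CHT, and CD5 had a difference of 5.23 in IR/CHT (adjusted p = 0.0196). With libraries left out, chosen after seeing the data, 1 to 2 markers were called there in IR/CHT.

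In the aorta, 1 marker was called in CHT and 2 by DESeq2 (CD5 at 1.96, adjusted p = 0.0329), with 1 to 2 over the libraries left out. On Lard, 1 was called, and 0 without the filter (CD28, adjusted p = 0.0508) and with only the 2 groups compared, where no marker passed the filter, with 0 to 1 over the libraries left out. DESeq2 called CD28 there (adjusted p = 0.000814).

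In the aortic valve, 2 markers were called in CHT and 1 on plate 1 alone (CD5 at 2.48, adjusted p = 0.0917). For IR/CHT against CHT, 2 were called, and 1 without the filter or with plate as a covariate, with 1 to 2 over the libraries left out. For the mitral valve, 2 were called in CHT, and 1 with only the 2 groups compared, with plate as a covariate and on plate 1 alone, with 1 to 2 over the libraries left out. In IR/CHT there, 2 were called and 1 on plate 2 alone (CD5 at 3.58, adjusted p = 0.105). Plates alone hold fewer libraries.

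Between Ctrl tissues, 0 markers passed the filter. Without the filter and by DESeq2, 1 was called for the aortic valve against the aorta (MS4A1 at -3.64, adjusted p = 0.00849, and -3.87, adjusted p = 0.00717) and 1 against the pulmonary valve (CD5 at 2.72, adjusted p = 0.0381, and 3.07, adjusted p = 0.0173). These rest on few counts.

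Of 300 recomputed counts of list genes, chosen after seeing the data, 21 moved by over 1.5 times. With only the 2 groups compared, 8 and 16 T cell genes rose in the aorta in CHT and IR/CHT, and 0 T cell and 0 B and plasma cell genes on Lard. On Lard, 5 T cell genes rose without the filter and 2 to 8 over the libraries left out. On plate 1 alone, 6 T cell and 7 B and plasma cell genes rose in the CHT aortic valve, 13 T cell genes in IR/CHT and 5 in IR/CHT against CHT (7 to 13 over the libraries left out). On plate 2 alone, 5 T cell and 6 B and plasma cell genes rose in the IR/CHT mitral valve.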
